A study of Mus musculus with 10 samples.

Results

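The Zfp genes are the mouse genes whose symbol is Zfp followed by a number. Their nascent transcription was followed in mouse embryonic stem cells (ESCs) after SOX2, a pluripotency transcription factor, was degraded. Members were chosen by symbol alone: single-gene transcribed units (TUs) named Zfp with a number and at most 1 further letter, without Zfp42. Of 314 such genes, 310 held more than 10 fragments in at least 2 of the 10 libraries and were tested, among 28459 tested TUs of which 14979 were single genes. The other 4 (Zfp389, Zfp503, Zfp521 and Zfp853) had at most 8 fragments in any library and were not tested.

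All libraries came from E14 ESCs in which SOX2 carries an FKBP tag (SOX2-FKBP), so that the small molecule dTAG-13 sends the protein to degradation. Cells were grown without serum, with LIF and inhibitors of MEK and GSK3, and were given 500 nM dTAG-13 for 0.5, 1, 2 or 6 h (hours post depletion, hpd in the plots) or DMSO, the untreated group (NT), with 2 replicates in each of the 5 groups. RNA made during the last 10 min was marked with 2 mM 4-thiouridine (4SU), purified and sequenced (TT_chem-seq), and a TU is a stretch transcribed without a break on 1 strand, introns included. The genotype was the same in every group, NT included. Homozygous knock-in clones of 1 parental line were used, untagged cells given dTAG-13 were not analysed here, and the labels do not say whether replicates were separate cultures, so that the p-values measure only the spread between these libraries, which may be technical.

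Most proteins of this family bind nucleic acid through repeated C2H2 fingers, loops held by a zinc ion that each read a few bases. Many also carry a KRAB box, which recruits the corepressor TRIM28 (KAP1) and, with it, the histone methyltransferase SETDB1, and these proteins are known in ESCs for silencing endogenous retroviruses and for protecting the methylation of imprinted regions. KRAB zinc finger genes arose by repeated local duplication and lie in clusters, whereas members without the box include older regulators of transcription, chromatin and RNA.

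The libraries held 11131490 to 25854106 fragments, of which the members took 1.54% to 1.63%. Klf2, a gene close to a known SOX2-bound element, fell by 3.50 on the log2 scale at 1 h (adjusted p = 1.9e-09), whereas the Sox2 TU, whose protein and not RNA is targeted, stood at 229 to 288 CPM (fragment counts scaled to the size of each library). All 7 ESC markers listed were tested, for example Esrrb at 802 to 1224 CPM and Nanog at 279 to 413 CPM, and at 6 h 6 of them had a log2 fold change below 0 and 4 were called down (Pou5f1, Nanog, Esrrb and Utf1), where 9.2% of all tested TUs were. The calls of Nanog and Esrrb were lost without NT replicate 2, and that of Nanog also without either library of 6 h. Markers of other lineages were low, with 5 of 12 tested: Gata4 0.663 to 1.28 CPM, Mixl1 0.257 to 0.740 CPM and Col1a1 0.312 to 1.16 CPM, with Pax6 at 9.29 to 17.6 CPM and Sox17, Cdx2 and Thy1 below the filter. The endoderm marker Gata6 was called up at 2 h, from 1.14 and 1.16 CPM in NT to 2.68 and 2.40 (log2 fold change 1.14, adjusted p = 0.029, where 4.26% of all TUs were up), a call lost without NT replicate 1 or 2 or 2 h replicate 1. At 6 h it stood at 0.85 (0.089), and its part in the members' values was not tested. In such bulk libraries fewer cells transcribing a gene and less transcription per cell cannot be told apart.

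The members were a mixed family. A KRAB box was found in the RefSeq protein of 184 members and not in 124, and 2 had no protein matched. Members with the box had a median of 12 C2H2 fingers and those without it 7, with up to 36 in 1 protein. Transcription per length in NT had a median of 0.961 CPM per kb over the members, 0.900 for KRAB members, 1.22 for those without the box and 0.777 over all single-gene TUs. The most transcribed members per kb were Zfp57 (17.3 CPM per kb), Zfp706 (10.96), Zfp207 (9.70), Zfp553 (9.15) and Zfp936 (9.14). Zfp57 guards methylation at imprinted regions, and Zfp207 encodes a spindle and splicing factor. The median TU was 25.2 kb long and ran 7.10 kb past the annotated end, and 31 TUs began more than 5 kb before the gene, so that a value may include transcription begun at an upstream start.

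Family members can share sequence, and fragments were kept by mapping quality, so that exons alike between members may be undercounted. In 50 members more than 20% of the 50-base stretches of the coding sequence occurred again in another gene. Zfp82, Zfp708 and Zfp935 had no coding stretch of their own. Of the 53 members called at any time point against NT, 6 were above 20%: Zfp59 (65.3%), Zfp931 (48.9%), Zfp808 (47.9%), Zfp729a (32.9%), Zfp354b (29.6%) and Zfp947 (27.9%). Introns and untranslated parts of exons, which are also counted in a TU, were not searched, so how far these values are affected is uncertain. Without the members above 20%, 24 members were up and 15 down at 6 h.

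Promoter sequences are given for members that fell (Zfp518b, Zfp819 and Zfp296) or rose (Zfp773, Zfp202 and Zfp423), since SOX2 acts through DNA sites. They lie within the 250 bases before the annotated start in the RefSeq table (mm10, 5' to 3' on the strand of the gene), cut to the longest stretch free of annotated exons. Capitals mark matches on either strand to the SOX core (ACAAAG or ACAATG), the octamer bound by OCT4 (ATGCAAAT), the GC box of SP factors (GGGCGG), a KLF motif (GGGNGTG), the ZNF143 core (ACTACAA), the cAMP response element (TGACGTCA) and the ZFX core (AGGCCT). GC box and KLF matches can overlap.
Zfp518b: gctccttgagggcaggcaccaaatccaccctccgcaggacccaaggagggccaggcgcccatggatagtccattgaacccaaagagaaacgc
Zfp819: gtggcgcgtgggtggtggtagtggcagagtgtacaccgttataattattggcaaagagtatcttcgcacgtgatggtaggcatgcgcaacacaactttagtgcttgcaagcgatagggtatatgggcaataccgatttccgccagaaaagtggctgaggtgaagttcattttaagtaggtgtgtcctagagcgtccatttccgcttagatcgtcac
Zfp296: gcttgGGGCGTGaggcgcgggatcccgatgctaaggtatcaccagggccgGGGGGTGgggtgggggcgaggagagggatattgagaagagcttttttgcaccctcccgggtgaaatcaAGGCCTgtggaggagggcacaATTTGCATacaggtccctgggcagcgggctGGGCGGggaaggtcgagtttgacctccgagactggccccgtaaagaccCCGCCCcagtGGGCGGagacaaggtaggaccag
Zfp773: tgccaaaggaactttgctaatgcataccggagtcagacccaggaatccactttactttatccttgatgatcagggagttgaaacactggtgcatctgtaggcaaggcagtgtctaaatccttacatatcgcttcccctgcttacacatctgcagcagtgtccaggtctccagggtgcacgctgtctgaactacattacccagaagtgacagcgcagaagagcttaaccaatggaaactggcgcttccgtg
Zfp202: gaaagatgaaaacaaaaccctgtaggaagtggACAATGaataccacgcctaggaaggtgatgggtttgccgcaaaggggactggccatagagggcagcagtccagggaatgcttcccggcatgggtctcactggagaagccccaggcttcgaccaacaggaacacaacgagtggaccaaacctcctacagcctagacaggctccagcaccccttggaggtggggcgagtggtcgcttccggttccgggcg
Zfp423: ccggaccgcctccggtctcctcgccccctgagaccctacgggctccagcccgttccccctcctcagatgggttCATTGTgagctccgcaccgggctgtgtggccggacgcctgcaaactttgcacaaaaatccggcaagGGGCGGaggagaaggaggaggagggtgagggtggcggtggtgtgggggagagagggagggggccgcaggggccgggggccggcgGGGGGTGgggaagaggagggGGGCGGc
The stretches are chr5:38684985-38685076 (minus strand), chr7:43606919-43607134 (plus), chr7:19577037-19577286 (plus), chr7:7136756-7137005 (minus), chr9:40192066-40192315 (plus) and chr8:87959596-87959845 (minus). Zfp296 held an octamer, 3 GC boxes, 2 KLF matches and a ZFX core. The annotated starts of Zfp819, Zfp202 and Zfp423 lie 1024, 1041 and 1014 bp from the starts of their TUs. The printed stretches of Zfp819 and Zfp202 lie inside their TUs, after the called start, and that of Zfp423 lies before its TU. These stretches may thus not be the promoters in use. Zfp202 and Zfp423 each held 1 ACAATG, and Zfp423 also 2 GC boxes and 1 KLF match. No searched motif was found in the other 3. A match is a description of letters and not a bound site.

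Over the 262 members with a promoter in the RefSeq table, ACAAAG was present in 12.2% and ACAATG in 8.78%, against 16.5% and 10.7% of all 32851 promoters. The octamer was present in 3.05% (1.60% of all) and the ZNF143 core in 6.49% (2.81% of all). GC boxes divided the family: 29.01% of KRAB members and 58.6% of other members held it, against 32.7% of all promoters. The median number of CpG pairs in the window was 8 for KRAB members, 16 for other members and 6 over all promoters. These sets are unlike: each member entered with the promoter nearest its TU start, the whole table with every promoter, its gene tested or not. A SOX core was present in 2 of the 24 members called up that had a promoter within 1 kb of their TU start, in 2 of the 8 called down and in 33 of the 174 not called.

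To ask how the family responded, each time point was compared with the same 2 NT libraries, so the 4 comparisons are not independent. At 0.5 h 1 of the 310 members was up and 2 were down, where 0.527% of all tested TUs were called up and 0.787% down. At 1 h 6 members were up and 8 down (backgrounds of 2.15% and 3.61%), and at 2 h 16 were up and 11 down (4.26% and 5.57%). At 6 h 28 members, 9.03% of the family, were up against 6.61% of all TUs, and 17 members, 5.48%, were down against 9.2% of all TUs. Antisense and extragenic TUs make up much of that background. All members are single genes, and of the single-gene TUs 10.4% were up and 7.73% down at 6 h, both above the shares of the family. In all, 36 members (11.6%) were called up and 17 (5.48%) down at some time point and none in opposite directions, where 8.46% of all TUs were called up and 10.4% down at some time point, and 13.2% and 8.99% of single-gene TUs. A joint test over the 4 time points called 34 members (10.97%), where 12.3% of all TUs were called. The balance of directions moved with the scaling: by total counts alone, 3 members were up and 12 down at 1 h, 9 and 18 at 2 h, and 16 and 23 at 6 h, with the median of all TUs at -0.13, -0.16 and -0.13 on the log2 scale in place of -0.04 at each. DESeq2 called 8 up and 6 down at 1 h, and 17 and 7 at 2 h.

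These counts changed when single libraries were left out, including libraries outside the comparison. At 0.5 h no member was up without NT replicate 1 or 2 or 0.5 h replicate 2, 2 were up without 2 h replicate 2, and 1 was down without NT replicate 1 or 2 or 0.5 h replicate 1 or 2. At 1 h 1 was up without NT replicate 2 or 1 h replicate 1 or 2, 3 without 6 h replicate 2 and 10 without 2 h replicate 1 or 2, and 5 were down without NT replicate 1 or 2 or 1 h replicate 2 and 3 without 1 h replicate 1. At 2 h 5 were up without NT replicate 2, 8 without 2 h replicate 1 and 25 without 2 h replicate 2, and 5 were down without NT replicate 1, 6 without 2 h replicate 1 and 7 without NT replicate 2 or 1 h replicate 1 or 2. At 6 h 10 were up and 9 down without NT replicate 2, 11 and 7 without 6 h replicate 1, 13 and 10 without 6 h replicate 2, and 11 were down without NT replicate 1. The joint test called 22 members without NT replicate 2 or 1 h replicate 2, 19 without 6 h replicate 1 and 16 without 6 h replicate 2. Of the 53 members, 16 had at least 1 call that held whichever library was left out: Zfp518b, Zfp553, Zfp459, Zfp819, Zfp59 and Zfp758, which fell, and Zfp773, Zfp202, Zfp931, Zfp423, Zfp385b, Zfp467, Zfp532, Zfp592, Zfp395 and Zfp354b, which rose.

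**Figure D1:**
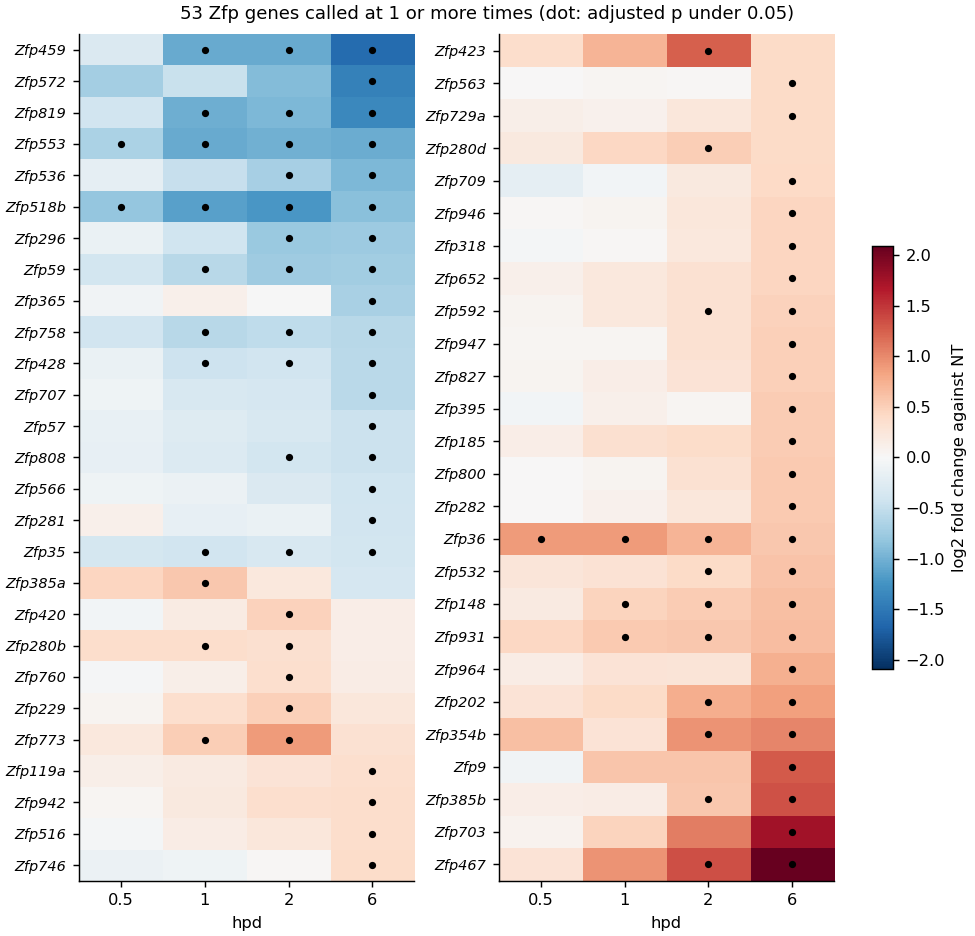
Heat map of the log2 fold change against NT (colour) of the 53 Zfp members called at any time point (rows) at 0.5, 1, 2 and 6 h (columns), with a dot where the adjusted p was under 0.05. Of these, 36 rose and 17 fell, and 3 were called at 0.5 h, 14 at 1 h, 27 at 2 h and 45 at 6 h.

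Zfp518b, which encodes a zinc finger protein found with the histone methyltransferases G9a and GLP, fell at every time point. Its TU (chr5:38657923-38684741, minus strand) stood at 70.9 and 72.5 CPM in NT, 44.0 and 37.6 at 0.5 h, 30.8 and 34.7 at 1 h, 29.5 and 32.2 at 2 h, and 38.2 and 40.1 at 6 h. Every depleted library lay below both NT libraries. The libraries compared did not overlap in any call of a member, so non-overlap here and below is a description and adds no support. The log2 fold change was -0.81 ± 0.11 (SE, n = 2 per group) at 0.5 h (edgeR adjusted p = 0.0016), -1.13 ± 0.11 at 1 h (2.5e-05), -1.22 ± 0.11 at 2 h (7.1e-06) and -0.87 ± 0.11 at 6 h (8e-05), and the calls held without any single library. The return between 1 and 6 h, 0.26 on the log2 scale, did not pass the test (adjusted p = 0.24).

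Zfp553, among the most transcribed members, also fell early. Its TU (chr7:127233442-127245034, plus strand) stood at 98.2 and 114 CPM in NT, 63.9 and 71.0 at 0.5 h, 47.0 and 55.2 at 1 h, 46.2 and 59.8 at 2 h, and 49.3 and 53.6 at 6 h. No depleted library reached the lower NT library. The log2 fold change was -0.66 ± 0.13 at 0.5 h (edgeR adjusted p = 0.022), -1.05 ± 0.13 at 1 h (0.00022), -1.003 ± 0.13 at 2 h (0.00018) and -1.04 ± 0.13 at 6 h (8.6e-05). The call at 0.5 h was lost without NT replicate 1 (0.056), NT replicate 2 (0.27), or replicate 1 (0.18) or 2 (0.071) of that time point, with log2 fold changes of -0.76 to -0.54.

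Zfp36 encodes tristetraprolin, which binds AU-rich elements and speeds the decay of messages of immediate early and cytokine genes, and was the only member called up at 0.5 h. Its TU (chr7:28371641-28379228, minus strand) had 8.21 and 7.41 CPM in NT, 13.2 and 16.0 at 0.5 h, 15.4 and 13.7 at 1 h, 12.2 and 13.3 at 2 h, and 12.9 and 10.4 at 6 h. All depleted libraries were above both NT libraries. The log2 fold change was 0.89 ± 0.16 at 0.5 h (adjusted p = 0.013), 0.89 ± 0.16 at 1 h (0.0039), 0.70 ± 0.16 at 2 h (0.013) and 0.57 ± 0.17 at 6 h (0.032). Each of these calls was lost without NT replicate 2, with adjusted p of 0.17, 0.053, 0.12 and 0.17 in the order of time and log2 fold changes of 0.82, 0.84, 0.64 and 0.52. Those at 0.5 and 6 h were also lost without NT replicate 1 (0.064 and 0.054), at 0.5 h without its replicate 2 (0.10), at 1 h without its replicate 1 (0.057) and at 6 h without its replicate 1 (0.22). By total counts those at 2 and 6 h were lost.

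**Figure D2:**
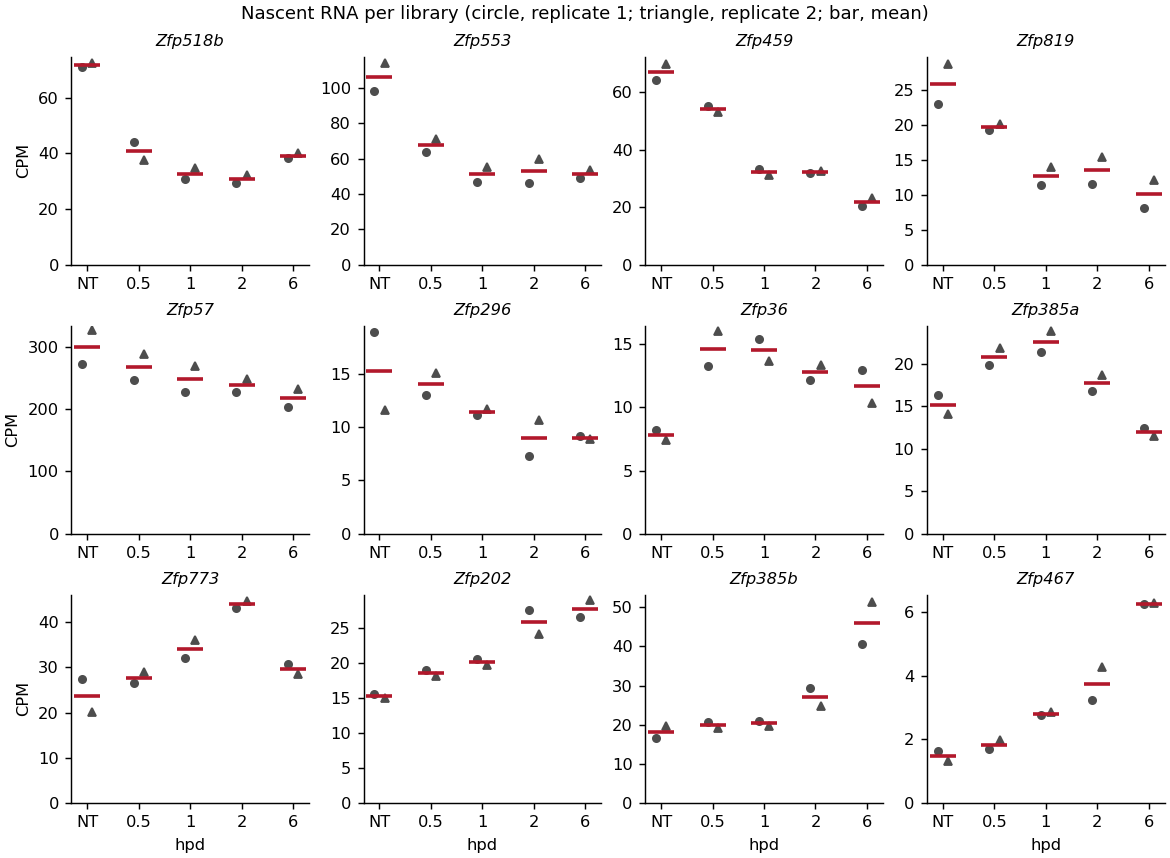
CPM (y axis, linear, a scale per panel) in each of the 10 libraries (x axis, by group) for 12 members, with replicate 1 as circles, replicate 2 as triangles and the mean of each group as a red bar. Zfp518b and Zfp553 are below NT from 0.5 h on, Zfp459 steps down at 1 and again at 6 h, Zfp773 is highest at 2 h, and Zfp385b and Zfp467 are highest at 6 h.

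From 1 h other members fell as well. Zfp459, a KRAB gene of the large chromosome 13 cluster, had a TU (chr13:67391299-67428411, minus strand) of 64.5 and 69.8 CPM in NT, 55.3 and 53.0 at 0.5 h, 33.4 and 31.3 at 1 h, 31.9 and 32.6 at 2 h, and 20.6 and 23.1 at 6 h. The groups at 1, 2 and 6 h lay below those at NT and 0.5 h without overlap, and the lowest libraries were those at 6 h. Its log2 fold change was -0.31 ± 0.10 at 0.5 h (adjusted p = 0.22), -1.05 ± 0.11 at 1 h (2.5e-05), -1.06 ± 0.11 at 2 h (1.2e-05) and -1.62 ± 0.11 at 6 h (2e-07), the smallest p of any member. The TU begins 6.99 kb before the annotated start of the gene. Between time points it fell by 0.75 on the log2 scale from 0.5 to 1 h (adjusted p = 0.011), by 0.56 from 2 to 6 h (0.026) and by 0.56 from 1 to 6 h (0.0073), and none of these calls held throughout. The call from 0.5 to 1 h was lost without 0.5 h replicate 1 (-0.71, 0.16) or 1 h replicate 1 (-0.79, 0.20) or 2 (-0.70, 0.27), that from 2 to 6 h without any of the 6 libraries at 1, 2 and 6 h (-0.65 to -0.47, 0.053 to 0.30), and that from 1 to 6 h without 1 h replicate 1 (-0.52, 0.087) or 6 h replicate 1 (-0.49, 0.10).

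Zfp819, a KRAB gene linked to repression of retrotransposons in ESCs, had a TU (chr7:43606145-43630353, plus strand) of 23.1 and 28.7 CPM in NT, 19.3 and 20.1 at 0.5 h, 11.5 and 14.1 at 1 h, 11.6 and 15.4 at 2 h, and 8.15 and 12.1 at 6 h. Its libraries from 1 h on lay below all NT and 0.5 h libraries. The log2 fold change was -1.02 ± 0.19 at 1 h (adjusted p = 0.0037), -0.94 ± 0.18 at 2 h (0.0039) and -1.34 ± 0.19 at 6 h (0.00021). The call at 6 h held throughout. That at 1 h was lost without NT replicate 2 (-0.83, adjusted p = 0.084) or 1 h replicate 1 (-0.88, 0.071), and that at 2 h without NT replicate 2 (-0.77, 0.076) or 2 h replicate 1 (-0.75, 0.052).

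Zfp59, a KRAB gene in the same cluster as Zfp36, had 86.4 and 91.9 CPM in NT, 70.0 and 66.9 at 0.5 h, 57.4 and 61.4 at 1 h, 51.9 and 54.8 at 2 h, and 50.01 and 57.7 at 6 h. Its depleted libraries were all below NT, with log2 fold changes of -0.74 ± 0.10 at 2 h (adjusted p = 0.00029) and -0.73 ± 0.10 at 6 h (0.00023). Zfp758, also a KRAB gene, had 54.4 and 44.2 CPM in NT and 32.1 to 38.9 CPM in the 8 depleted libraries, which did not overlap with NT. Its log2 fold change was -0.58 ± 0.12 at 6 h (0.0033). Zfp35 and Zfp428 were called down at 1, 2 and 6 h with log2 fold changes of -0.33 to -0.57. Their calls at 1 and 2 h were lost with DESeq2, with RLE factors, with no filter on counts and without any of the libraries of NT or 1 h. At 6 h the call of Zfp35 was lost without any of the libraries of NT or 6 h, and that of Zfp428 without NT replicate 2 or 6 h replicate 1.

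Members that rose took several courses. Zfp931, a KRAB gene of chromosome 2 (chr2:178059042-178078454, minus strand), rose early and stayed up, with 25.98 and 25.7 CPM in NT, 35.1 and 34.3 at 0.5 h, 37.4 and 38.1 at 1 h, 39.0 and 37.8 at 2 h, and 41.0 and 39.8 at 6 h. Its groups did not overlap with NT, and the log2 fold change was 0.43 ± 0.10 at 0.5 h (adjusted p = 0.057), 0.55 ± 0.10 at 1 h (0.0041), 0.57 ± 0.10 at 2 h (0.0019) and 0.65 ± 0.10 at 6 h (0.00052). The call at 1 h was lost without 1 h replicate 2 (0.53, adjusted p = 0.057). Zfp280b was called up at 1 h (0.37 ± 0.10, adjusted p = 0.039) and 2 h (0.33 ± 0.10, 0.047), with 103 and 115 CPM in NT, 133 to 146 in the libraries from 0.5 to 2 h, and 121 and 119 at 6 h, where the log2 fold change was 0.15 ± 0.10 (0.35). Without NT replicate 1 its values were 0.31 (adjusted p = 0.18) and 0.26 (0.21), and without NT replicate 2 they were 0.47 (0.069) and 0.42 (0.083). Both calls were lost as well by total counts and without either library of their own time point (adjusted p of 0.071 to 0.30), that at 1 h also without 6 h replicate 2. That at 2 h held without 0.5 h replicate 2 alone of the 10 libraries, and was lost with no filter on counts, with a mean of at least 50 fragments and with only the libraries compared.

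Other rises had their highest values at 2 h. Zfp773, a KRAB gene of chromosome 7 (chr7:7121487-7136732, minus strand), had 27.5 and 20.1 CPM in NT, 26.5 and 28.9 at 0.5 h, 32.1 and 36.1 at 1 h, 43.2 and 44.8 at 2 h, and 30.8 and 28.5 at 6 h. Its 2 h libraries were above all others (log2 fold change 0.89 ± 0.14, adjusted p = 0.00062), against 0.32 ± 0.14 at 6 h (0.14). Zfp423, which encodes a partner of SMAD and retinoid signalling in neural and adipocyte precursors, lies in a TU of 299 kb (chr8:87660015-87958581, minus strand). It had 13.6 and 12.1 CPM in NT, 17.5 and 15.6 at 0.5 h, 23.5 and 18.6 at 1 h, 39.7 and 21.3 at 2 h, and 17.4 and 16.5 at 6 h. All depleted libraries exceeded NT, and the replicates at 2 h were far apart, with a log2 fold change of 1.25 ± 0.22 (0.002) at 2 h and 0.40 ± 0.23 at 6 h (0.27). Without 2 h replicate 1 the value at 2 h was 0.73 (adjusted p = 0.020). For neither gene did a difference between 1, 2 and 6 h pass the test. From 2 to 6 h the log2 fold change was -0.57 ± 0.13 for Zfp773 (adjusted p = 0.069) and -0.85 ± 0.22 for Zfp423 (0.093).

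A further set had its highest log2 fold change at 6 h. Zfp385b, which encodes an RNA-binding zinc finger protein, has a TU of 214 kb (chr2:77406535-77620183, minus strand) with 16.7 and 19.8 CPM in NT, 20.6 and 19.2 at 0.5 h, 20.8 and 19.8 at 1 h, 29.3 and 24.7 at 2 h, and 40.5 and 51.4 at 6 h. The 6 h libraries were above all others, and the log2 fold change was 0.57 ± 0.14 at 2 h (adjusted p = 0.02) and 1.34 ± 0.14 at 6 h (1.5e-05). The call at 2 h was lost without NT replicate 1 (0.45, adjusted p = 0.13) or 2 h replicate 1 (0.44, 0.18), and by total counts. Between 1 and 6 h Zfp385b rose by 1.18 ± 0.14 (0.00017), a call that held without any single library.

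Zfp467 (chr6:48428917-48446052, minus strand) had the largest log2 fold change of any member at 6 h, from a low level. It had 1.62 and 1.31 CPM in NT, 1.68 and 1.97 at 0.5 h, 2.76 and 2.85 at 1 h, 3.24 and 4.27 at 2 h, and 6.25 and 6.29 at 6 h, so that its groups from 1 h on did not overlap with NT. The log2 fold change was 0.93 ± 0.27 at 1 h (adjusted p = 0.056), 1.35 ± 0.26 at 2 h (0.0032) and 2.09 ± 0.25 at 6 h (3.9e-05), and the call at 2 h was lost without NT replicate 2 (1.21, 0.051). Zfp202, a KRAB gene (chr9:40191275-40219394, plus strand), had 15.5 and 14.97 CPM in NT, 18.97 and 18.0 at 0.5 h, 20.6 and 19.6 at 1 h, 27.5 and 24.1 at 2 h, and 26.5 and 28.9 at 6 h. Its libraries stood above NT from 0.5 h on, with log2 fold changes of 0.76 ± 0.12 at 2 h (0.00086) and 0.86 ± 0.12 at 6 h (0.0002). Zfp354b, a KRAB gene at 2.42 and 2.54 CPM in NT and 4.78 and 5.24 at 6 h, rose by 1.01 ± 0.22 (0.0054). It was already called up at 2 h (0.94 ± 0.22, adjusted p = 0.012), a call lost without NT replicate 1 or 2.

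To ask which members changed after the first hours, time points were also tested against each other, in the same fit of all 10 libraries, so that the NT libraries entered the scaling and the estimate of the spread. Only Zfp459 was called between 0.5 and 1 h by edgeR, with 6 up and 8 down at an unadjusted p under 0.05 (0 members up where 0.0105% of all TUs were up, 1 down where 0.0984% were down). Between 1 and 2 h no member was called by edgeR or DESeq2 in either direction (backgrounds of 0.0211% up and 0.197% down), with 12 up and 1 down at an unadjusted p under 0.05, and 1 was called without 2 h replicate 2. Their log2 fold changes ran from -0.48 to 0.66. From 2 to 6 h Zfp385b and Zfp395 rose and Zfp459 fell (0.26% of TUs up and 0.517% down), calls that numbered 1 without any of the libraries at 1 or 2 h or 6 h replicate 1, and 0 without 6 h replicate 2. From 1 to 6 h 8 members rose and 3 fell (1.96% and 2.92%). Without 1 h replicate 1 or 2, or 6 h replicate 1 or 2, the calls from 1 to 6 h numbered 2, 3, 3 and 5 in place of 11.

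Zfp385a, related to Zfp385b and known as a cofactor of p53, turned over this interval. Its TU (chr15:103309014-103323323, minus strand) had 16.4 and 14.03 CPM in NT, 19.8 and 21.8 at 0.5 h, 21.3 and 23.8 at 1 h, 16.8 and 18.7 at 2 h, and 12.4 and 11.5 at 6 h. The libraries at 0.5 and 1 h were above NT and those at 6 h below it. The log2 fold change was 0.57 ± 0.13 at 1 h (adjusted p = 0.019) and -0.35 ± 0.14 at 6 h (0.11), and from 1 to 6 h it fell by 0.92 on the log2 scale (0.00095), which held without any single library. The rise at 1 h was lost without NT replicate 2 (0.49, adjusted p = 0.16), 1 h replicate 1 (0.65, 0.065) or 1 h replicate 2 (0.49, 0.20), and by total counts. Zfp362 had 6.87 and 5.89 CPM in NT, 4.89 and 4.27 at 1 h, and 8.64 and 8.91 at 6 h, and its rise from 1 to 6 h was 0.94 (0.011), lost without either library of 1 h (0.054 and 0.15) or of 6 h (0.063 and 0.074). Zfp395 was called against NT at 6 h and at no earlier time point, from 46.9 and 39.6 CPM in NT to 60.1 and 64.5, a log2 fold change of 0.53 ± 0.11 (0.0035).

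Of 9 listed members known for silencing transposons, proviruses and imprints, 6 were tested, while Zfp445, Zfp92 and Zfp989 were not analysed here. Zfp819 was down from 1 h and Zfp57 at 6 h, where 9.2% of all TUs were down. Zfp57 (chr17:37003665-37020984, plus strand) had 271 and 327 CPM in NT, 247 and 288 at 0.5 h, 228 and 269 at 1 h, 227 and 248 at 2 h, and 203 and 232 at 6 h. From 1 h on its libraries were below both NT libraries, with a log2 fold change of -0.46 ± 0.13 at 6 h (adjusted p = 0.026). That call was lost without NT replicate 2 (-0.30, adjusted p = 0.30), 6 h replicate 1 (-0.35, 0.21) or 6 h replicate 2 (-0.56, 0.052). At 6 h the log2 fold change was 0.12 ± 0.11 for Zfp809, which silences murine leukaemia virus (adjusted p = 0.49), -0.05 ± 0.11 for Zfp568, the repressor of a placental Igf2 transcript (0.77), and -0.04 ± 0.15 for Zfp932 (0.90), which represses endogenous retroviruses. It was 0.22 ± 0.15 for Zfp708 (0.36), whose coding sequence holds no unshared stretch. The median of the 6 was -0.05, against 0.12 over the members.

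Of 15 listed regulators of stem cells and development, 10 were tested, Zfp503 and Zfp521 were below the filter, and Zfp219, Zfp462 and Zfp608 were not analysed here. At 6 h Zfp148 and Zfp703 were up and Zfp281, Zfp296 and Zfp536 down, 2 and 3 of 10 where 6.61% of all TUs were up and 9.2% down. Zfp281, which acts in the exit from naive pluripotency, had 147 and 147 CPM in NT and 109 and 115 at 6 h, a log2 fold change of -0.40 ± 0.10 (adjusted p = 0.016) in a TU that begins 58.6 kb before the gene. Zfp296, a factor of ESCs and reprogramming, had 18.9 and 11.6 CPM in NT, 7.33 and 10.6 at 2 h, and 9.13 and 8.91 at 6 h, with log2 fold changes of -0.78 ± 0.21 (0.031) and -0.76 ± 0.22 (0.026). The NT libraries of Zfp296 were far apart, and without NT replicate 1 its values were -0.38 (0.30) and -0.35 (0.30). The call at 2 h was also lost without 2 h replicate 1 (-0.53, adjusted p = 0.29), and that at 6 h without 6 h replicate 1 (-0.77, 0.12) or 2 (-0.74, 0.13). Zfp536, which restrains neural differentiation, had 7.47 and 7.05 CPM in NT and 4.07 and 3.49 at 6 h (-0.94 ± 0.20, adjusted p = 0.0047).

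The call of Zfp281 was lost without any of the 4 libraries compared (adjusted p of 0.058 to 0.13), and that of Zfp536 without 6 h replicate 2 (-0.83, 0.061). Zfp148, a factor of GC-rich promoters, rose from 487 and 481 CPM in NT to 692 and 797 at 6 h, a log2 fold change of 0.62 ± 0.13 (adjusted p = 0.004). Without 6 h replicate 2 it was 0.52 (0.055). Zfp703 had 0.269 and 0.291 CPM in NT and 1.12 and 0.815 at 6 h (1.75 ± 0.51, adjusted p = 0.031), a call lost with DESeq2 and without any of the 4 libraries compared (0.060 to 0.15). The other members of the list, Zfp143, Zfp217, Zfp322a and Zfp609, lay between 0.10 and 0.25 on the log2 scale at 6 h and were called at no time point.

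Of 9 listed partners of chromatin complexes, 8 were tested and Zfp618 was not analysed here. Besides the fall of Zfp518b, 4 were up at 6 h, where 6.61% of all TUs were: Zfp532 and Zfp592, which form a complex with ZMYND8 and Zfp687, Zfp516, a partner of the demethylase LSD1, and Zfp827, which binds the NuRD complex. Zfp532 rose from 234 and 271 CPM in NT to 346 and 415 at 6 h (0.59 ± 0.11, adjusted p = 0.0024), and Zfp592 from 115 and 108 CPM to 154 and 156 (0.48 ± 0.10, 0.0031). Both held without any single library. Zfp516 (0.37 ± 0.10, adjusted p = 0.021) and Zfp827 (0.50 ± 0.14, 0.028) were lost without NT replicate 2 (0.38 with adjusted p = 0.093, and 0.41 with 0.21) or 6 h replicate 2 (0.31 with 0.15, and 0.41 with 0.18), and Zfp516 also by total counts. Zfp687 (0.30 ± 0.11, 0.070), Zfp644 (0.36 ± 0.16, 0.13) and Zfp518a (0.16 ± 0.18, 0.58) did not pass the test. The median of the list was 0.04 at 0.5 h and 0.36 at 6 h.

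Of 12 listed factors of RNA, translation, ubiquitin and the spindle, 9 were tested, and Zfp326, Zfp638 and Zfp91 were not analysed here. Of these Zfp36 and Zfp385a were called against NT at some time point, 2 of 9 where 18.8% of all TUs were. At 6 h the log2 fold change was -0.24 ± 0.10 for Zfp598, the ubiquitin ligase of collided ribosomes (adjusted p = 0.13), and -0.02 ± 0.10 for Zfp622, a ribosome assembly factor (0.89). It was 0.20 ± 0.12 for Zfp207 (0.29), 0.11 ± 0.11 for the SUMO ligase Zfp451 (0.54), 0.09 ± 0.11 for Zfp106 (0.62), 0.10 ± 0.11 for Zfp346 (0.59) and -0.28 ± 0.17 for Zfp593 (0.29). From 1 to 6 h none of the 9 had a value above 0, with a median of -0.09, where 73.2% of all members were above 0.

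Beyond the called members the family as a whole shifted little. Its median log2 fold change was -0.06 at 0.5 h, -0.0003 at 1 h, 0.05 at 2 h and 0.12 at 6 h, with 114, 155, 181 and 211 of the 310 members above 0. The medians of all single-gene TUs were 0.01, 0.02, 0.05 and 0.07, with 51.8%, 53.5%, 55.8% and 58.0% above 0, and those of all TUs -0.02, -0.04, -0.04 and -0.04. From 1 to 6 h the median of the members was 0.12 and that of single-gene TUs 0.04. The level of the family depended on the NT libraries: without NT replicate 1 its medians were 0.04, 0.09, 0.14 and 0.23 in the order of time, and without NT replicate 2 they were -0.12, -0.06, -0.02 and 0.04. Without NT replicate 2 the median of single-gene TUs at 6 h was 0.05, so that the members no longer stood above it. When libraries were scaled by total counts alone, the medians were -0.09 at 1 h, -0.07 at 2 h and 0.03 at 6 h. Another 60 zinc finger genes named Zbtb, Zscan, Zkscan or Znf had a median of 0.10 at 6 h, with 7 up (11.7%) and 3 down (5%), beside 6.61% and 9.2% of all TUs.

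**Figure D3:**
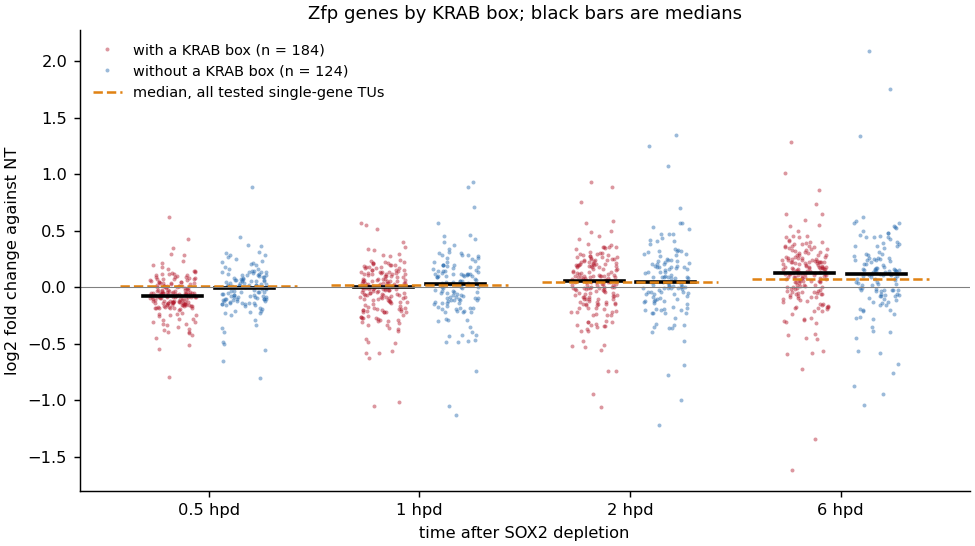
Log2 fold change against NT (y axis) of each member at 0.5, 1, 2 and 6 h (x axis), with the 184 KRAB members in red and the 124 without the box in blue, black bars for their medians and an orange dashed line for the median of single-gene TUs. The KRAB median moved from -0.07 at 0.5 h to 0.13 at 6 h, and most members stayed close to 0 at all times.

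The medians of KRAB members and of the others were close at 6 h. At 0.5 h 53 of 184 were above 0 (median -0.07) and none was called by edgeR or DESeq2, with 4 up and 9 down at an unadjusted p under 0.05. At 6 h 131 were above 0 (median 0.13) with 13 up (7.07%) and 8 down (4.35%), beside 6.61% and 9.2% of all TUs. Members without the box had 61 of 124 above 0 at 0.5 h (median -0.01) and 80 at 6 h (median 0.12), with 15 up (12.1%) and 8 down (6.45%) at 6 h. These medians rested on the NT libraries. Without NT replicate 1 the KRAB median at 0.5 h was 0.04, with 106 of 184 above 0, and that of the others 0.07. Without NT replicate 2 they were -0.15 and -0.06 at 0.5 h, and 0.04 and 0.06 at 6 h. From 1 to 6 h 144 KRAB members and 82 of the others were above 0 (medians of 0.14 and 0.08). The joint test called 7.07% of KRAB members and 16.9% of the others, where 15.3% of single-gene TUs were called. These sets are described by counts, and the difference between them was not tested.

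Change went along with TU length in the family and outside it. The shortest of 4 equal length classes of the members (up to 16.6 kb) had medians of -0.13, -0.08, -0.07 and 0.01 at 0.5, 1, 2 and 6 h, and the longest (over 36.1 kb) 0.01, 0.10, 0.15 and 0.19. The values of the shortest class turned sign with NT: without NT replicate 1 its medians were 0.004, 0.02, 0.03 and 0.15, and without NT replicate 2 they were -0.19, -0.18, -0.18 and -0.06. Single-gene TUs within the same limits had medians of -0.06, -0.11, -0.11 and -0.05 in the shortest class and 0.05, 0.13, 0.18 and 0.18 in the longest. At 6 h each of the 4 classes had a higher median in the members than in single-gene TUs, and at 0.5 h each had a lower one. Both orders depended on NT: without NT replicate 2 the members were higher in 2 of the 4 classes at 6 h, and without NT replicate 1 they were higher in 2 of the 4 at 0.5 h. The part of length in these differences was not tested.

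**Figure D4:**
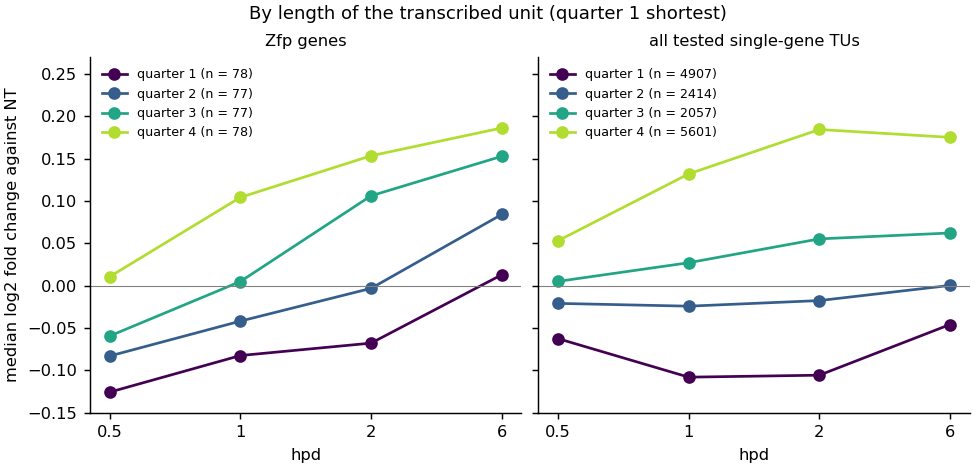
Median log2 fold change against NT (y axis) by time point (x axis, evenly spaced) in 4 classes of TU length, for the members and for single-gene TUs. Members of the shortest class lie below 0 until 2 h and reach 0.01 at 6 h (above 0 at all 4 time points without NT replicate 1), and those of the longest class rise from 0.01 to 0.19.

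Chromosomal clusters hold much of the family. With neighbouring TUs at most 500 kb apart and at least 3 members, 180 members lay in 27 clusters, 143 of them KRAB members. Chromosome 7 had 79 members, 66 of them in 9 clusters, chromosome 17 had 40 and chromosome 13 had 29. At 6 h clustered members were up in 14 cases and down in 9 (median 0.12), and the 130 outside clusters in 14 and 8 (median 0.13), which is 7.78% and 5% of the former and 10.8% and 6.15% of the latter, beside 6.61% and 9.2% of all TUs.

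The largest cluster, Zfp712 to Zfp273 (chr13:67033430-67829081), holds 20 members, all with a KRAB box. Their median log2 fold change was -0.07, -0.02, 0.12 and 0.18 in the order of time, and at 6 h 16 of 20 were above 0. Zfp729a was called up there at 6 h (0.40, adjusted p = 0.036), and Zfp459 was called down, at -1.62. The call of Zfp729a was lost by total counts and without NT replicate 2 or any library of 1 or 6 h. In the chromosome 17 cluster of 18 members from Zfp160 to Zfp213 (chr17:21008943-23564210) the medians were -0.04, 0.06, 0.19 and 0.26. Zfp942, Zfp946 and Zfp947 were up and Zfp758 down at 6 h, and Zfp229 and Zfp760 up at 2 h. All of these calls but the fall of Zfp758 were lost when some single libraries were left out, including libraries outside the comparison. By total counts the calls of Zfp942, Zfp946, Zfp947 and Zfp760 were lost. Those of Zfp942 and Zfp946 were also lost without NT replicate 2 or any library of 1 or 6 h, and that of Zfp946 without NT replicate 1. That of Zfp947 was lost without NT replicate 1 or either library of 6 h, that of Zfp229 without NT replicate 2, and that of Zfp760 without NT replicate 2, 2 h replicate 1 or any library of 1 or 6 h. The 9 other single genes of the span had a median of 0.44 at 6 h, above that of the members. A second chromosome 17 cluster of 13 members, Zfp871 to Zfp414 (chr17:32755913-33647226), had 11 above 0 at 6 h, with Zfp563 called up. That call was lost with DESeq2, by total counts and without NT replicate 2 or any library of 1 or 6 h. The 5 other single genes of its span had a median of 0.01 at 6 h and the members 0.17. In the chromosome 13 cluster the 8 other single genes had a median of -0.29 at 6 h, below that of the members.

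Neighbours did not always move alike. In the chromosome 7 cluster of 9 members from Zfp553 to Zfp668 (chr7:127233442-127876858) the medians were -0.21, -0.37, -0.24 and -0.13, with 0, 0, 1 and 2 members above 0, and Zfp553 was the only member called. Its TUs are short, with a median of 9.79 kb, and the 24 other single genes of the span had medians of 0.02, -0.07, 0.05 and 0.02. From 1 to 6 h 8 of the 9 members were above 0 (median 0.26). The 10 members from Zfp180 to Zfp428 (chr7:24081908-24530636) were also mostly below 0, with 2 above 0 at 6 h (median -0.09) and Zfp428 called down. The 5 other single genes of that span had a median of 0.11 at 6 h. In the chromosome 6 cluster of 10 members (chr6:47813523-48628155) Zfp467, Zfp282 and Zfp746 were up at 6 h. The call of Zfp282 was lost without NT replicate 2 or 6 h replicate 1, and that of Zfp746 with DESeq2, by total counts and without NT replicate 2 or any library of 1 or 6 h. The chromosome 7 cluster of 6 members with Zfp36 and Zfp59 held the early rise of the former and the fall of the latter.

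**Figure D5:**
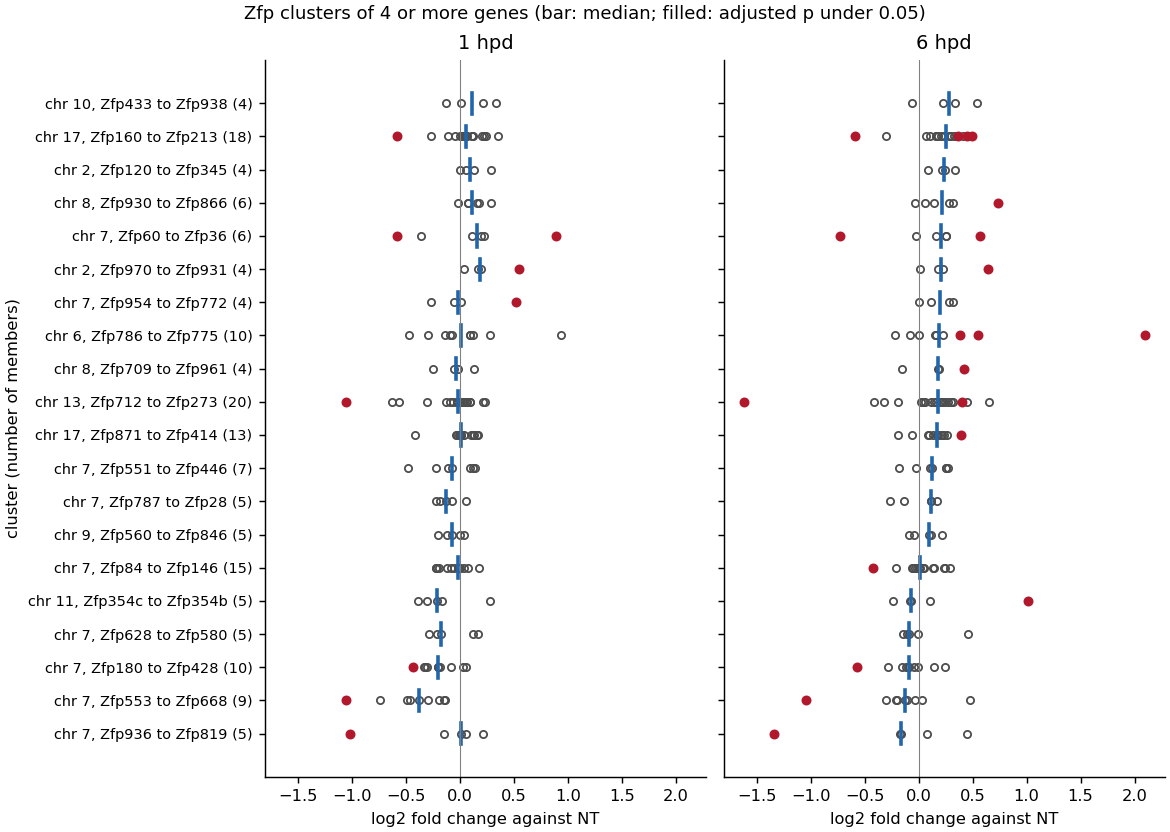
Log2 fold change against NT (x axis) of each member in the 20 clusters of at least 4 members (rows) at 1 h and 6 h (panels), with bars at the medians and filled red points for called members. The Zfp553 to Zfp668 cluster lies left of 0 at 1 h, and the chromosome 13 and 17 clusters lie mostly right of 0 at 6 h.

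Of 22 listed genes of the KRAB corepressor pathway 19 were tested, and 1 was up (5.26%) and 3 were down (15.8%) at 6 h, beside 6.61% and 9.2% of all TUs. Trim28 (410 to 555 CPM) had a log2 fold change of -0.10 at 6 h (adjusted p = 0.66) and Setdb1 (188 to 233 CPM) one of 0.08 (0.63). The DNA methyltransferase Dnmt3a rose by 0.60 at 6 h (0.0044). Uhrf1, which recruits DNMT1, fell by 0.39 (0.013), and the histone deacetylases Hdac2 and Hdac1 fell by 0.57 (0.0021) and 0.31 (0.037), all on the log2 scale. The call of Hdac2 held without any single library, whereas those of Dnmt3a, Uhrf1 and Hdac1 were lost without NT replicate 2, those of Uhrf1 and Hdac1 also without NT replicate 1 or 6 h replicate 1, and that of Hdac1 without 6 h replicate 2 or either library of 1 h. At 2 h Mphosph8 of the HUSH complex (0.44, adjusted p = 0.026) and Chd4 of NuRD (0.40, 0.023) were up and Uhrf1 and Hdac2 down, beside 4.26% and 5.57% of all TUs. The calls of Mphosph8, Chd4 and Uhrf1 at 2 h were lost without NT replicate 1 or 2 or 2 h replicate 1, that of Hdac2 without NT replicate 2, and Mphosph8 had values of 0.30 to 0.56 with 1 library left out.

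Since TUs are stranded, transcription opposite the members was read as well. Of the members, 207 overlapped 275 tested TUs on the other strand: 126 genes, 116 antisense and 33 extragenic TUs. Of these, 2, 13, 22 and 31 were called at 0.5, 1, 2 and 6 h, and at 6 h 5 were up (1.82%) and 26 down (9.45%), beside 6.61% and 9.2% of all TUs. At any time 36 were called (13.1%, beside 18.8% of all TUs), and 15 without NT replicate 2, 22 without 6 h replicate 1 and 21 without 6 h replicate 2. These counts include members that lie opposite another member. At 6 h Zfp931 and Zfp942 were up and Zfp566, Zfp758 and Zfp35 down, calls that are counted among the members as well. Antisense TUs were down in 12 of 116 cases at 6 h (10.3%) and called up in none by edgeR (3 at an unadjusted p under 0.05, 0 by DESeq2), where 9.38% of all 5669 tested antisense TUs were down. The antisense TU at Zfp512 (chr5:31477072-31489324) had 33.1 and 34.6 CPM in NT, 19.2 and 21.9 at 0.5 h, 14.99 and 13.1 at 1 h, 15.2 and 16.8 at 2 h, and 13.98 and 13.1 at 6 h. It fell below NT at every time point, with a log2 fold change of -0.73 at 0.5 h (adjusted p = 0.0078) and -1.27 at 1 h (2.7e-05), while Zfp512 itself lay between -0.01 and 0.12 at the 4 time points.

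Other members moved with or against the opposite strand. Sept1, which overlaps Zfp553 over 4.57 kb, had log2 fold changes of -1.05 at 1 h (adjusted p = 0.00058) and -1.16 at 6 h (0.00011), beside -1.05 and -1.04 for Zfp553. The TU named Olfr985 opposite Zfp202 stood at -0.77 at 2 h (0.00089) and -1.07 at 6 h (3.4e-05), where Zfp202 rose by 0.76 and 0.86. Opposite Zfp536, which fell, an antisense TU stood at -1.16 at 2 h (0.0038) and -0.69 at 6 h (0.049). Fragments were split by strand, and the part of reads assigned to the wrong strand was not tested.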

How the data were processed

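TT_chem-seq was measured in 10 libraries of SOX2-FKBP ESCs. The deposited values were raw fragment counts per TU, which the authors had not normalized. Per their methods, they aligned reads to mm10 with bwa mem (version 0.7.17-r1188 in the submitters' processing notes), kept a mapping quality of at least 10 with samtools 1.10, removed duplicates with Picard 2.12.0 and split alignments by strand. The authors called TUs from pooled data with a hidden Markov model of 2 states in bins of 200 bp and assigned RefSeq genes. Positions, in base pairs on mm10, are other deposited values of the authors and may start 1 base early in a count from 1. The medium had been refreshed, and depletion start times were staggered so that all cells were harvested at once.

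Counts were fitted with edgeR 4.0.16 (R 4.3.3) by quasi-likelihood F-tests with TMM factors over all 10 libraries, 1 coefficient per group and no covariates, for TUs above 10 fragments in 2 or more libraries. P-values were adjusted by Benjamini-Hochberg over 28459 TUs, and a TU was called where the adjusted p was below 0.05. Replicates had a biological coefficient of variation of 10.0%, CPM were scaled with TMM factors, and log2 CPM used a prior count of 2. Standard errors (SE) were derived as the absolute log2 fold change divided by the root of the F statistic. The script was tested on simulated data. Totals of 11131490 to 25854106 fragments per library set the precision.

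The members, lists, rule for naming genes and alternatives were chosen with earlier results of these data known, so no list was tested as a set. Named were up to 5 called members per direction and time point with the smallest p whose 2 depleted libraries fell outside the NT range, the members of 4 lists by role, the 5 with the highest CPM per kb, and up to 5 called between time points. Other called members were named after their values were seen. A KRAB box was scored in translated RefSeq proteins (at least 10 of 15 conserved positions), and motifs were searched in the RefSeq promoter table (Python 3.11.15). All 310 members matched a RefSeq gene, 1 of them by synonym.

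Alternatives were DESeq2 1.42.0, RLE factors, total counts, no filter on counts, a minimum mean of 50 fragments, a fit of only the compared libraries, a block for replicate number, a stricter KRAB score, clusters with gaps of up to 1 Mb, and leaving out each library in turn.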

Additional observations from a re-analysis of the deposited data

Results flagged for a closer look

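These members were singled out because their change from NT differed between time points by a direct test of the later against the earlier time point, in the fit of all 10 libraries (edgeR quasi-likelihood F-test, adjusted over all TUs, 2 libraries per group). On the log2 scale Zfp459 changed by -0.75 from 0.5 to 1 h, -0.56 from 1 to 6 h and -0.56 from 2 to 6 h. Zfp385b rose by 0.77 from 2 to 6 h and by 1.18 from 1 to 6 h. Zfp467 (1.16), Zfp362 (0.94), Zfp746 (0.48), Zfp709 (0.47), Zfp202 (0.46), Zfp395 (0.42) and Zfp318 (0.42) rose from 1 to 6 h, and Zfp395 also from 2 to 6 h (0.49). Zfp385a (-0.92) and Zfp365 (-0.79) fell from 1 to 6 h. Only the changes of Zfp385b and Zfp385a from 1 to 6 h held when any single library was left out. With DESeq2 the rises of Zfp202, Zfp318 and Zfp709 from 1 to 6 h were not called, and that of Zfp709 was also lost without either NT library.

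The CPM behind the values not yet given were as follows. Zfp365 had 8.47 and 8.60 CPM at 1 h and 4.43 and 5.42 at 6 h. Zfp318 had 48.3 and 43.1 CPM at 1 h and 63.5 and 58.6 at 6 h. Zfp746 had 32.3 and 29.4 CPM at 1 h and 43.7 and 42.4 at 6 h, and Zfp709 had 14.4 and 12.9 CPM at 1 h and 19.3 and 18.4 at 6 h. In each of these 4 genes the libraries of the 2 time points did not overlap, as in every other call of a member.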

How the results depend on the processing

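Depth and 2 libraries per group limit small changes, and members at low CPM (Zfp703, Zfp467) rest on few fragments. With DESeq2, 2 members were up at 0.5 h, 7 down at 2 h and 5 were called from 2 to 6 h. A mean of at least 50 fragments gave 2 up at 0.5 h. With total counts, 3 were up at 1 h, 9 up and 18 down at 2 h and 16 up at 6 h, and the family medians were -0.088, -0.066 and 0.032 at 1, 2 and 6 h. With only the libraries compared, 16 were up at 1 h, 7 down at 2 h, 1 was called from 2 to 6 h and 26 from 1 to 6 h. The cause of these shifts was not tested.

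Replicate numbers were not taken to pair the libraries: deviations of same-numbered libraries correlated at 0.074 to 0.29 over 10 pairs of groups, above 0.1 in 8. The replicate block gave 4 members up and 5 down at 0.5 h, 13 up at 1 h, 37 up and 19 down at 2 h, 63 up at 6 h, 83 in the joint test, 3 from 0.5 to 1 h, 11 from 2 to 6 h, 29 from 1 to 6 h and 73 TUs opposite members.

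Leaving out each library in turn gave 0 to 2 up and 1 to 2 down at 0.5 h, 1 to 10 and 3 to 9 at 1 h, 5 to 25 and 5 to 11 at 2 h, 10 to 38 and 7 to 17 at 6 h, and 16 to 49 in the joint test. Between time points it gave 0 to 1 (0.5 to 1 h), 0 to 1 (1 to 2 h), 0 to 4 (2 to 6 h) and 2 to 15 (1 to 6 h), and 15 to 45 opposite TUs. Family medians ran from -0.117 to 0.044, -0.062 to 0.090, -0.016 to 0.139 and 0.044 to 0.228 in the order of time.

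Of 64 called log2 fold changes of named members, none changed direction under an alternative that gave it a value. Zfp703 had too few fragments for the minimum mean of 50. The number no longer called was 10 with total counts, 6 with only the libraries compared, 3 each with DESeq2 or no count filter, 3 of 63 with a mean of at least 50 fragments, 2 with RLE factors and 0 with the replicate block, and 126 of 640 when single libraries were left out.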
